A study of Mus musculus with 8 samples.

Results

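The 10 transcription factor genes described here steer blood progenitors towards a lineage, and they were followed in sorted mouse bone marrow cells. They are Gata1, Gata2, Klf1, Gfi1b, Spi1, Cebpa, Cebpe, Gfi1, Irf8 and Ebf1. The members were taken by gene symbol, and all 10 of 10 were found among 45706 genes in the count files. Of these, 9 passed the filter on low counts among 16258 tested genes. The exception was Cebpe. Each assay, RNA sequencing and ATAC-seq (in which a transposase inserts into accessible DNA and so marks open chromatin), had 2 libraries labelled Hira KO and 2 labelled WT. The cells were LSK cells (Lin-, Sca1+, cKit+), sorted to hold haematopoietic stem cells and multipotent progenitors, from C57BL/6 bone marrow. The labelled Hira KO libraries are said to come from mice with a conditional knockout of Hira, which encodes a histone chaperone for H3.3, and the labelled WT libraries from wild-type mice. The Cre driver, any inducing agent, the time after deletion, the age of the mice and whether animals were pooled are not given in the sources used here.

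These factors work as a network. GATA2 keeps early progenitors undifferentiated, and GATA1, with KLF1, takes over in cells that become red cells. GATA1 and PU.1, the product of Spi1, bind each other and oppose each other's programmes, and C/EBPα, C/EBPε, GFI1 and IRF8 then divide granulocytes from monocytes and dendritic cells, while EBF1 commits cells to the B lineage. LSK cells sit before most of these choices, and low levels of several factors in the same population are known as lineage priming.

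The RNA libraries held 16.6 to 19.8 M expected counts. Hira itself stood at 24.4 and 23.3 CPM (counts scaled to library size) in labelled Hira KO and at 16.5 and 17.2 CPM in labelled WT, which goes against the labels, and the deposited files' own names also carry the opposite genotype. Exons that a deletion leaves in place still add to a whole-gene count, which limits this check. Every direction below therefore depends on the labels. The 11 markers of the LSK gate were above 0 in all libraries, and their summed TPM (a level scaled for gene length and library size) was 678 and 654 in labelled Hira KO and 364 and 321 in labelled WT. Of 16 genes of mature cells outside the gate, none was at 0 in any library, with summed TPM of 299 and 158 in labelled Hira KO and 145 and 64.3 in labelled WT. The plasma cell gene Jchain made up 202 and 98.2 TPM of these sums in labelled Hira KO and 14.4 and 6.08 TPM in labelled WT. Sex-linked transcripts set labelled WT replicate 2 apart as male-like: it had 906 Ddx3y counts where the other libraries had 1 or 2, and 1470 Xist counts where they had at least 169234. Labelled Hira KO replicate 2 had 6 counts of AY036118, against 86174 to 108841 elsewhere. Whether libraries stem from separate mice is not stated, so the spread behind the p-values may be technical in the labelled Hira KO group. The sex-linked transcripts show that the labelled WT libraries are not repeats from the same mice.

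Promoter sequences are given first for 5 members, because the values described below turn on their RNA or their promoter regions. Each window runs from 250 bases before to 50 bases after a RefSeq start site on GRCm38.p6 and is read 5′ to 3′ on the gene's strand. Capitals mark GATAAG (the core bound by GATA factors) in Klf1 and Gfi1b, CCNCACCC (a CACCC box of the KLF family) in Gata1, TTCNNNGAA (bound by STAT factors) in Irf8 and TATAAA, an element near many start sites, in Cebpa, on either strand. The windows are chr8:84901732-84902031 (+) for Klf1, chr2:28621933-28622232 (-) for Gfi1b, chrX:7967861-7968160 (-) for Gata1, chr8:120736108-120736407 (+) for Irf8 and chr7:35119043-35119342 (+) for Cebpa.
Klf1: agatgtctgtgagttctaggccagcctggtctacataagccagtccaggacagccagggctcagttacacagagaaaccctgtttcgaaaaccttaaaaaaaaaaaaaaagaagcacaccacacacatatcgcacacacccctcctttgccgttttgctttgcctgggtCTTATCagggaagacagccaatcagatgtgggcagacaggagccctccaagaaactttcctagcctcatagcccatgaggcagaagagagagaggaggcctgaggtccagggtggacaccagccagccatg
Gfi1b: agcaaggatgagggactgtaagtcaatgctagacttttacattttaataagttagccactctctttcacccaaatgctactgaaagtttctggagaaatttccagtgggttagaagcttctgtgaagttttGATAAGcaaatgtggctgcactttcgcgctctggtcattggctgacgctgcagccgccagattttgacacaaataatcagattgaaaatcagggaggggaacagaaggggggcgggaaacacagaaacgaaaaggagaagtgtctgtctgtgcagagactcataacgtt
Gata1: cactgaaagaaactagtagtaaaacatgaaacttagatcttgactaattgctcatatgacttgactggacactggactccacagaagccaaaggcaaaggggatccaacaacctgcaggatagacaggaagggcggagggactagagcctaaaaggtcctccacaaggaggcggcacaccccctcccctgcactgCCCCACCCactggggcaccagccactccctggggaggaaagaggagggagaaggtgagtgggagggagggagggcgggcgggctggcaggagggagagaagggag
Irf8: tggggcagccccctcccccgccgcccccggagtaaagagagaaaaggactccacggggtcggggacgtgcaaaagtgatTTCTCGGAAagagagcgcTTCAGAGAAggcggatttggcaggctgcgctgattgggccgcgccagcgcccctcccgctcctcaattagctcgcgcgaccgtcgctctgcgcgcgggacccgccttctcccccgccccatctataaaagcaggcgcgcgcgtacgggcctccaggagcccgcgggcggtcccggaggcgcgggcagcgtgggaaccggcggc
Cebpa: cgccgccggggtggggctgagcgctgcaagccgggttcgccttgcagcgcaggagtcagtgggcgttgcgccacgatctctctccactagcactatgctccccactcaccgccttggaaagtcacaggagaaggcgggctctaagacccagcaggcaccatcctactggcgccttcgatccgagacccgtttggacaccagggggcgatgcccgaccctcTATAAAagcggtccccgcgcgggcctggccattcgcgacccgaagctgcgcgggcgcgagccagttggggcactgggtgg

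The RefSeq promoter table held 12 windows for 8 of the 10 members; Spi1 and Cebpe were without an entry. GATAAG was found in 2 of the 12 windows, those of Klf1 (first base at -81 from the start site) and Gfi1b (at -119), and in 7.44% of all 32851 promoter windows in the table. The TTCNNNGAA motif occurred in the windows of Irf8 (at -171 and -153) and Gfi1b (at -133), against 8.30% of all windows. TATAAA stood at -30 in Cebpa and at -31 in Irf8, and 13.6% of all windows held it. The GFI core AAATCA was found in Gfi1b and in both windows of Irf8 (14.0% of all windows), and its match in the first Irf8 window, at -175, shares bases with the STAT match at -171. CCNCACCC was found in Gata1 and Cebpa (16.6%), TTGCNNAA, bound by C/EBP proteins, in Gfi1 (10.8%), and the palindrome bound by EBF1 in Gata1 (0.904%). AGGAAGT, bound by PU.1, and the composite element of ETS and IRF factors were in none of the 12 windows (9.35% and 2.72% of all). Both strands were searched. These are matches of letters in short windows, not measured binding, and no match says only that these letters are not in the window.

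Per gene length, the members spanned a wide range of levels in LSK cells. Spi1 was highest by its median over the 4 libraries (45.8 TPM), followed by Gfi1b (30.8), Klf1 (21.4), Gata2 (21.2), Irf8 (14.7), Ebf1 (12.5), Gata1 (6.66), Cebpa (3.05), Gfi1 (2.5) and Cebpe (0.360). No neighbouring pair in this order was separated, since the range of each gene over the 4 libraries overlapped that of the next. Spi1 lay between 40.9 and 67.1 TPM, so its lowest library was above the highest library of Klf1, at 37.1 TPM. Klf1 had the widest range of the 9 tested members, with 11.9 and 1.46 TPM in labelled Hira KO against 37.1 and 31.0 TPM in labelled WT.

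**Figure D1:**
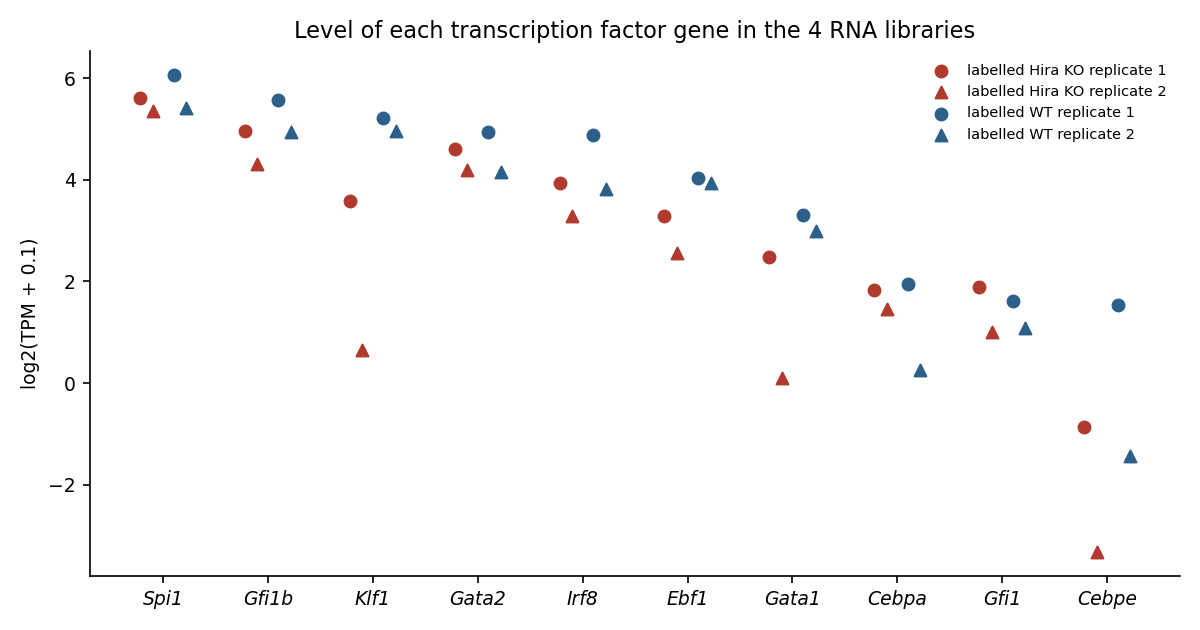
Levels of the 10 genes as log2(TPM + 0.1) in each RNA library, ordered by the median over the 4 libraries, with labelled Hira KO in red left of labelled WT in blue; circles are replicate 1 and triangles replicate 2. Spi1 is highest at 40.9 to 67.1 TPM, and Klf1 spreads most among the 9 tested genes, down to 1.46 TPM in labelled Hira KO replicate 2.

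The main comparison asked whether these genes differed between LSK cells labelled Hira KO and labelled WT. Of the 9 tested members, 5 (Klf1, Gata1, Ebf1, Irf8 and Gfi1b) had lower CPM in both labelled Hira KO libraries than in either labelled WT library, and none was higher in both. Over all tested genes, 27.8% were lower and 28.3% higher without overlap of the groups. By edgeR's quasi-likelihood test with Benjamini-Hochberg adjustment over all tested genes, 0 of 9 members passed the threshold of 0.05 in either direction, where 1.32% of all genes were called higher and 0.48% lower (1.8% in either direction). An unadjusted edgeR p below 0.05 was found for 4 members (Ebf1, Irf8, Gfi1b and Gata1), all lower, against 10.6% of all tested genes lower and 12.2% higher at that level. The count of members called lower was 1 by DESeq2 (Ebf1) and 2 by limma on log2(TPM + 1) (Gata1 and Klf1), and 0 were called higher by these tools. Over all tested genes, DESeq2 called 570 lower and limma on log2(TPM + 1) 262. The median log2 fold change of the 9 members was -0.68, against 0.01 over all tested genes. In bulk libraries, fewer cells of a type and less RNA per cell cannot be told apart.

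Among the erythroid factors, Klf1 encodes the activator of adult globin and many other red cell genes. The gene lies at chromosome 8, 84901982 to 84905291. It had 12.3 and 2.04 CPM in labelled Hira KO, against 37.2 and 40.7 CPM in labelled WT. Both labelled Hira KO libraries were low, and they differed from each other more than the labelled WT libraries did. The log2 fold change was -2.42 (SE 0.88, 95% interval -4.97 to 0.12, n = 2 each, edgeR adjusted p = 0.232), the largest in size among the 9 tested members. Leaving out labelled Hira KO replicate 2 gave -1.66 (edgeR adjusted p = 0.00117), without replicate 1 of that group -4.26 (edgeR adjusted p = 1.38e-05), without a labelled WT library -2.50 and -2.37 (edgeR adjusted p = 0.579 and 0.581), and by limma on log2(TPM + 1) -2.63 (adjusted p = 3.18e-07). A fit without 1 library takes the lone library of that group to vary like the others.

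Gata1, the X-linked master regulator of red cells, megakaryocytes and mast cells (chromosome X, 7959260 to 7976663), followed the same order of libraries. It had 7.10 and 1.74 CPM in labelled Hira KO, against 12.4 and 13.2 CPM in labelled WT. Again labelled Hira KO replicate 2 was the lowest, while the female-like and the male-like labelled WT libraries lay close together. Its log2 fold change was -1.52 (SE 0.61, 95% interval -3.02 to -0.03, edgeR adjusted p = 0.213). Leaving out labelled Hira KO replicate 2 gave -0.85, and without replicate 1 of that group it was -2.89. Without labelled WT replicate 1 or 2 it was -1.57 and -1.49. By limma on log2(TPM + 1) the adjusted p was 0.0263, and by DESeq2 it was 0.0739. The lncRNA genes Gm39488 and Gm52419 overlap Gata1 in the annotation, and reads of overlapping genes cannot be told apart without strand. The same limit holds for Gata2, overlapped by Gm38708, and for Gfi1b, overlapped by Gm52548, and so for ratios with these genes.

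Gata2, which acts before Gata1 in stem cells and early progenitors (chromosome 6, 88193891 to 88207032), had nearly level values. It stood at 56.5 and 56.1 CPM in labelled Hira KO and at 69.3 and 51.9 CPM in labelled WT, with the labelled Hira KO values inside the labelled WT range. The log2 fold change was -0.11 (95% interval -0.53 to 0.32, edgeR adjusted p = 0.779), and it was 0.10 without labelled WT replicate 1. In TPM, the ratio of Gata2 to Gata1 was 4.42 and 18.7 in labelled Hira KO, against 3.13 and 2.26 in labelled WT. The ratio was above the labelled WT values in both labelled Hira KO libraries, and most so in replicate 2. No test of the ratio was run. An exact permutation test of 2 libraries against 2 cannot go below p = 0.333.

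Gfi1b, a repressor with its own role in red cells and megakaryocytes (chromosome 2, 28609450 to 28621982), had 36.8 and 24.8 CPM in labelled Hira KO, against 53.5 and 45.3 CPM in labelled WT. The groups did not overlap in CPM, while in TPM they did (31.0 and 19.7 TPM in labelled Hira KO, 47.2 and 30.6 TPM in labelled WT). Its log2 fold change was -0.68 (SE 0.23, 95% interval -1.21 to -0.15, edgeR adjusted p = 0.139), and it was -1.01 without labelled Hira KO replicate 1 (edgeR adjusted p = 0.00392). Leaving out replicate 2 of that group gave -0.43 for Gfi1b (edgeR adjusted p = 0.159), and leaving out labelled WT replicate 1 or 2 gave -0.57 and -0.81 (edgeR adjusted p = 0.628 and 0.479). Its relative Gfi1, which represses in lymphoid and granulocytic progenitors and in stem cells (chromosome 5, 107716655 to 107725805), stood at 6.99 and 4.93 CPM in labelled Hira KO and at 5.50 and 5.09 CPM in labelled WT. These overlapped, with a log2 fold change of 0.17 (95% interval -0.60 to 0.95, edgeR adjusted p = 0.804) that was -0.12 without labelled Hira KO replicate 1. The TPM ratio of Gfi1b to Gfi1 was 8.61 and 10.3 in labelled Hira KO, against 15.9 and 15.1 in labelled WT, without overlap and not tested.

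**Figure D2:**
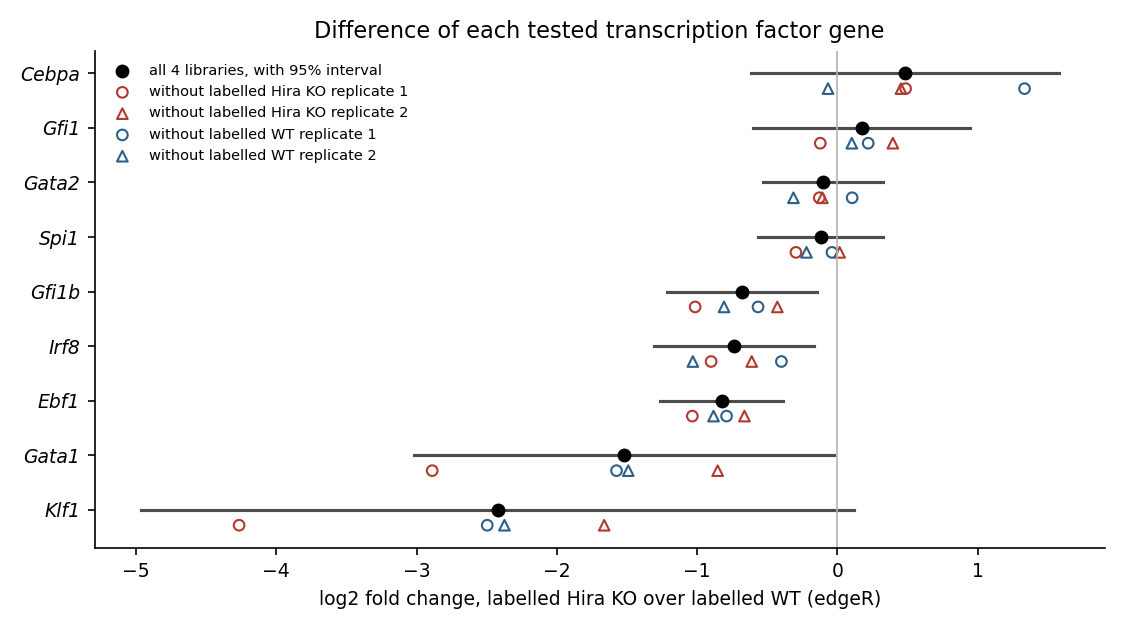
The log2 fold change of each tested member, labelled Hira KO over labelled WT, from edgeR (black points, bars are 95% intervals), with the value after leaving out each library in open symbols. Klf1 and Gata1 lie lowest, at -2.42 and -1.52, and move most when a labelled Hira KO library is left out.

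Of the myeloid factors, Spi1 encodes PU.1, needed for monocytes, granulocytes and lymphoid cells (chromosome 2, 91082374 to 91115759). It had 34.1 and 27.8 CPM in labelled Hira KO and 35.7 and 31.6 CPM in labelled WT, and the groups overlapped. The log2 fold change of Spi1 was -0.12 (95% interval -0.57 to 0.33, edgeR adjusted p = 0.756), and it was 0.02 without labelled Hira KO replicate 2. In TPM, Spi1 exceeded Gata1 8.93 and 42.2 times in labelled Hira KO, against 6.83 and 5.44 times in labelled WT.

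Cebpa, the gene of the factor that starts granulocyte and monocyte differentiation (chromosome 7, 35119293 to 35121928), had 6.58 and 6.79 CPM in labelled Hira KO, and 6.93 and 2.63 CPM in labelled WT. One labelled WT library lay above and the other below both labelled Hira KO values. Its log2 fold change was 0.48 (95% interval -0.61 to 1.58, edgeR adjusted p = 0.583), moving to -0.07 when labelled WT replicate 2 was left out and to 1.33 when replicate 1 of that group was. Cebpe, which acts late in granulocytes and drives secondary granule genes (chromosome 14, 54710363 to 54712174), had 7 and 0 counts in labelled Hira KO and 41 and 5 counts in labelled WT. It did not pass the low-count filter, and only labelled WT replicate 1 held more than 10 counts, so no difference was given.

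Irf8, which directs progenitors to monocytes and dendritic cells and also acts in B cells (chromosome 8, 120736358 to 120756694), stood at 31.1 and 25.7 CPM in labelled Hira KO, against 57.4 and 37.1 CPM in labelled WT. The groups did not overlap in CPM, although the labelled WT libraries differed widely, and in TPM they did overlap (15.3 and 9.68 TPM in labelled Hira KO, 29.2 and 14.0 TPM in labelled WT). For Irf8 the log2 fold change was -0.74 (SE 0.24, 95% interval -1.31 to -0.17, edgeR adjusted p = 0.136), ranging from -1.03 to -0.40 when 1 library was left out.

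Ebf1, the B-lineage determinant (chromosome 11, 44618100 to 45008096), came closest to the threshold. It had 32.9 and 25.7 CPM in labelled Hira KO, against 53.5 and 50.3 CPM in labelled WT. Both labelled Hira KO values were below both labelled WT values. Its log2 fold change was -0.82 (SE 0.19, 95% interval -1.26 to -0.39, edgeR adjusted p = 0.0682), and DESeq2 gave an adjusted p of 0.0108. Without labelled Hira KO replicate 1 or replicate 2 the edgeR adjusted p was 0.00234 and 0.0332, and without labelled WT replicate 1 or 2 it was 0.509 and 0.426.

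Genes around the members were described from lists of relatives, partners and targets, by counts and medians beside the median of 0.01 over all tested genes. By edgeR, 2 genes of these lists were called higher and 4 lower. Leaving out either labelled WT library lost all of these calls, as it did most calls over all tested genes. Erythroid targets of GATA1 and KLF1 had a median log2 fold change of -1.13 over 19 tested genes, with 0 called higher and 1 lower. The called gene was Tspo2, a translocator protein gene of red cell precursors, which fell (2.54 and 2.22 CPM in labelled Hira KO, 8.89 and 13.7 CPM in labelled WT; log2 fold change -2.24, edgeR adjusted p = 0.0370). The transferrin receptor gene Tfrc (-1.29), the ferrochelatase gene Fech (-0.76) and the globin gene Hbb-bt (-0.98) did not pass. The other listed globin genes, named after their values were seen, had values above 0 and did not pass either (Hbb-bs 1.57, Hba-a1 0.12 and Hba-a2 0.34) and the same held for the haem synthesis gene Alas2 (0.36). The summed TPM of the erythroid list was 681 and 236 in labelled Hira KO and 912 and 893 in labelled WT, so it was lowest in the library where Klf1 and Gata1 were lowest, and no gene of it was at 0 in any library. Its part in the Klf1 and Gata1 values was not tested.

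Megakaryocyte and mast cell targets had a median of -0.55 over 15 genes, with 1 called higher and 0 lower by edgeR. Mcpt8, a basophil protease gene (-1.48), Ms4a2, a subunit of the IgE receptor (-1.55), and the interleukin 33 receptor gene Il1rl1 (-1.69) did not pass. These belong to mast cells and basophils. The platelet genes of the list, named after their values were seen, lay nearer 0 and did not pass (the integrin gene Itga2b -0.10, Gp9 0.27, Gp1ba 0.16, Vwf 0.31, Ppbp -0.06 and Pf4 -0.55).

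Granulocyte targets of the C/EBP proteins and GFI1 had a median of -1.25 over 16 genes, with 1 called higher and 1 lower. The siderophore-binding gene Lcn2 fell (35.4 and 27.1 CPM in labelled Hira KO, 72.3 and 82.3 CPM in labelled WT; log2 fold change -1.31, edgeR adjusted p = 0.0337). The receptor gene Csf3r rose (111 and 148 CPM in labelled Hira KO, 63.7 and 62.0 CPM in labelled WT; 1.04, edgeR adjusted p = 0.0427). The collagenase gene Mmp8 (-1.41) and the lactoferrin gene Ltf (-1.16) did not pass. The summed TPM of the list was 2645 and 1269 in labelled Hira KO and 5547 and 2851 in labelled WT, with labelled WT replicate 1 highest, as for Cebpe, and none of the genes at 0. Whether these transcripts bear on Cebpe was not tested.

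Monocyte and dendritic targets of PU.1 and IRF8 had a median of -0.52 over 16 genes, with 0 called higher and 1 lower. Ly6c2, a monocyte surface gene, fell (21.6 and 17.5 CPM in labelled Hira KO, 90.4 and 48.9 CPM in labelled WT; log2 fold change -1.83, edgeR adjusted p = 0.0481). The integrin gene Itgam (1.31), the MHC class II chaperone gene Cd74 (-1.30) and the cytokine receptor gene Csf2rb (-0.82) did not pass. The summed TPM was 565 and 323 in labelled Hira KO and 1045 and 581 in labelled WT. Labelled WT replicate 1 was highest and labelled Hira KO replicate 2 lowest, as for the TPM of Irf8, but the order of the other libraries differed. Only 1 gene of the list was at 0, in labelled Hira KO replicate 1, and the part of the list in the Irf8 values was not tested.

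B-lineage targets of EBF1 and E2A had a median of -0.28 over 15 genes, with 0 called higher and 1 lower. Igll1, the surrogate light chain gene of pro-B cells, fell (27.8 and 23.6 CPM in labelled Hira KO, 62.7 and 56.7 CPM in labelled WT; log2 fold change -1.21, edgeR adjusted p = 0.0337). The receptor signalling gene Cd79a (-1.07) did not pass, nor did Dntt, the gene of the terminal transferase that adds bases at V(D)J junctions (0.58). The summed TPM of the list was 364 and 226 in labelled Hira KO and 503 and 326 in labelled WT, and none of its genes was at 0. Their part in the Ebf1 values was not tested.

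Among the partner proteins, 0 of 18 tested genes were called in either direction, with a median of -0.01. The bridging factor gene Lmo2, which joins GATA factors to TAL1, had 122 and 132 CPM in labelled Hira KO and 72.6 and 78.5 CPM in labelled WT (log2 fold change 0.75, edgeR adjusted p = 0.0518). Tcf3, the gene of E2A (-1.03), Ldb1 (-0.55) and Zfpm1, the gene of the GATA1 cofactor FOG1 (-0.85), did not pass either. For the family relatives the median was 0.74 over 16 genes, again with 0 called in either direction. Of these, the interferon regulatory factor genes Irf2 (0.91), Irf4 (1.14), Irf9 (0.59) and Irf1 (0.88) had the lowest p-values, and all 4 had positive values where Irf8 had a negative one. At an unadjusted edgeR p below 0.05, 2 of 18 partner genes were higher and 5 lower. Of 16 relatives, 7 were higher and 0 lower at that level, against 12.2% and 10.6% of all tested genes. DESeq2, which called 918 of all tested genes higher and 570 lower, called 1 partner higher and 2 lower, and 4 relatives higher. At that unadjusted level, none of the 19 erythroid targets was higher and 4 were lower. Higher and lower numbers were 1 and 6 of 15 in the megakaryocyte and mast cell list and 2 and 10 of 16 in the granulocyte list. They were 1 and 6 of 16 in the monocyte and dendritic list and 2 and 6 of 15 in the B-lineage list. DESeq2 called 0 erythroid targets higher and 3 lower, and 1 higher in each other target list, with 3 lower (megakaryocyte and mast cell), 5 (granulocyte), 3 (monocyte and dendritic) and 5 (B lineage).

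**Figure D3:**
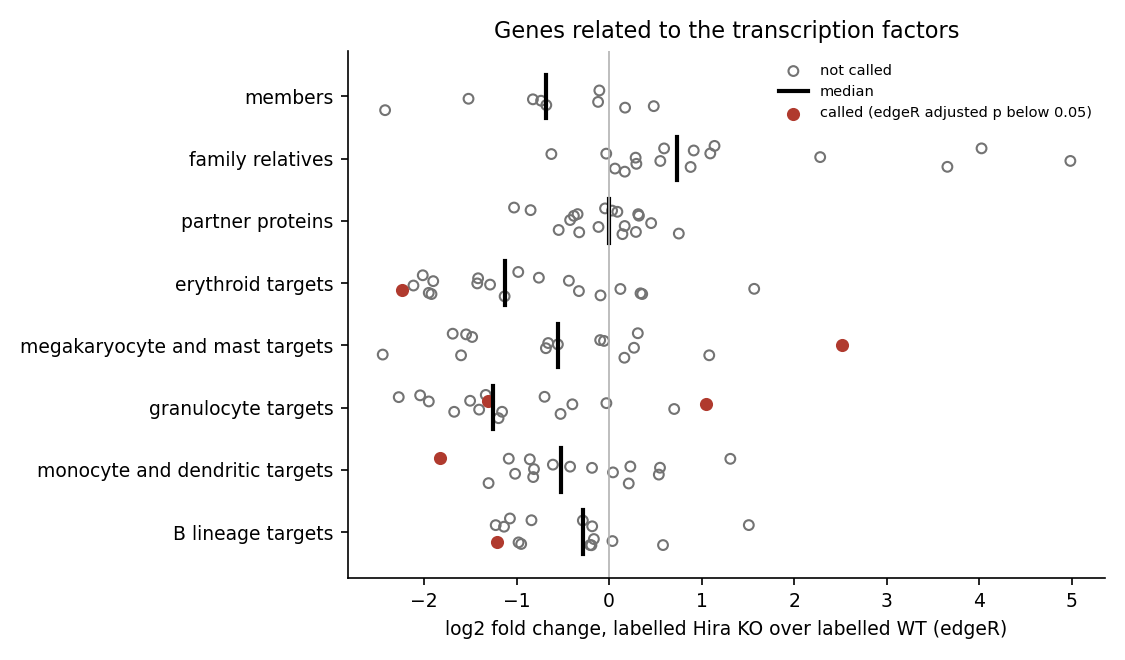
Log2 fold change, labelled Hira KO over labelled WT by edgeR, of each tested gene among the members and the related lists; filled red points passed the adjusted threshold and black bars are medians. The medians run from -1.25 (granulocyte targets) to 0.74 (family relatives), and most genes were not called.

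Open chromatin within 10 kb of the gene bodies was described from each library's own peak list, using the fold enrichment over background that the authors' caller gave. The lists held 92839 and 73715 peaks in labelled Hira KO and 79565 and 63422 in labelled WT, and they give no read totals, so the depth is unknown and values were not tested between lists. Merged across libraries, 89 regions lay near the 10 members, of which 32 were called in all 4 libraries, 3 in both labelled Hira KO libraries and neither labelled WT library, and 3 in both labelled WT libraries and neither labelled Hira KO library. The shares were 36.0%, 3.37% and 3.37%, against 40.7%, 5.64% and 2.77% of all 112479 regions. Labelled WT replicate 2 called the fewest of these regions (40) and labelled Hira KO replicate 1 the most (67).

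**Figure D4:**
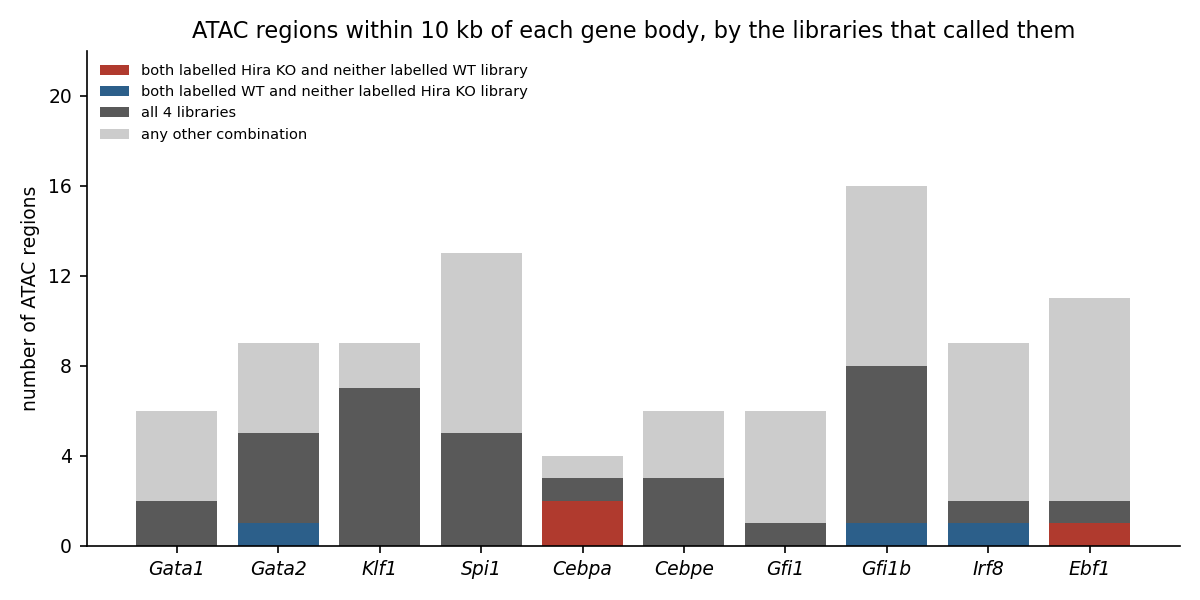
Number of ATAC regions within 10 kb of each gene body, stacked by which libraries called them. Gfi1b has the most regions, 16, and Klf1 the largest number shared by all 4 libraries together with Gfi1b, 7 each. Most of the shared regions near Klf1 overlap neighbouring genes.

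Of the 3 regions called in the labelled Hira KO pair alone, 2 lay downstream of Cebpa. The first, at chromosome 7, 35124783 to 35125135 (centre 5.67 kb past the start site), had fold enrichments of 7.93 and 5.15 in labelled Hira KO and no call in labelled WT. The second, at 35127004 to 35127456, had 2.80 and 5.49. Within the lists of their libraries these values stood at percentiles 1.36 and 29.4, the first near the lowest called. A region not called is not shown to be closed. The third such region lay within Ebf1, at chromosome 11, 44881130 to 44881616, with 10.02 and 4.80. The regions of the labelled WT pair lay at Gata2 (4.04 and 3.61 in labelled WT), Gfi1b (5.003 and 4.60) and Irf8 (3.85 and 3.94). In the list of labelled WT replicate 2 they stood at percentiles 5.34, 21.0 and 9.89.

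At regions shared by all 4 libraries, the fold enrichments of the groups did not overlap at 10 of 32 regions in the direction of higher labelled Hira KO values (31.2%) and at 6 in the direction of lower values (18.8%), against 24.9% and 17.7% of all 45779 shared regions. These shares are near the background. Of the 6 regions with lower values, 5 were at Gfi1b and 1 at Gata2. Gfi1b is known in mouse to have enhancers downstream of the gene that bind GATA2 and other blood cell factors. Downstream of Gfi1b, the region at chromosome 2, 28606686 to 28608226 (centre 14.5 kb past the start site) had 5.13 and 9.27 in labelled Hira KO, against 20.01 and 26.9 in labelled WT. The adjoining region at 28605743 to 28606506 had 6.99 and 6.18 in labelled Hira KO, against 18.3 and 20.02 in labelled WT. At the promoter window printed above, in the region at 28621702 to 28622264, the values were 14.5 and 11.3 in labelled Hira KO and 15.8 and 9.85 in labelled WT, which overlapped.

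**Figure D5:**
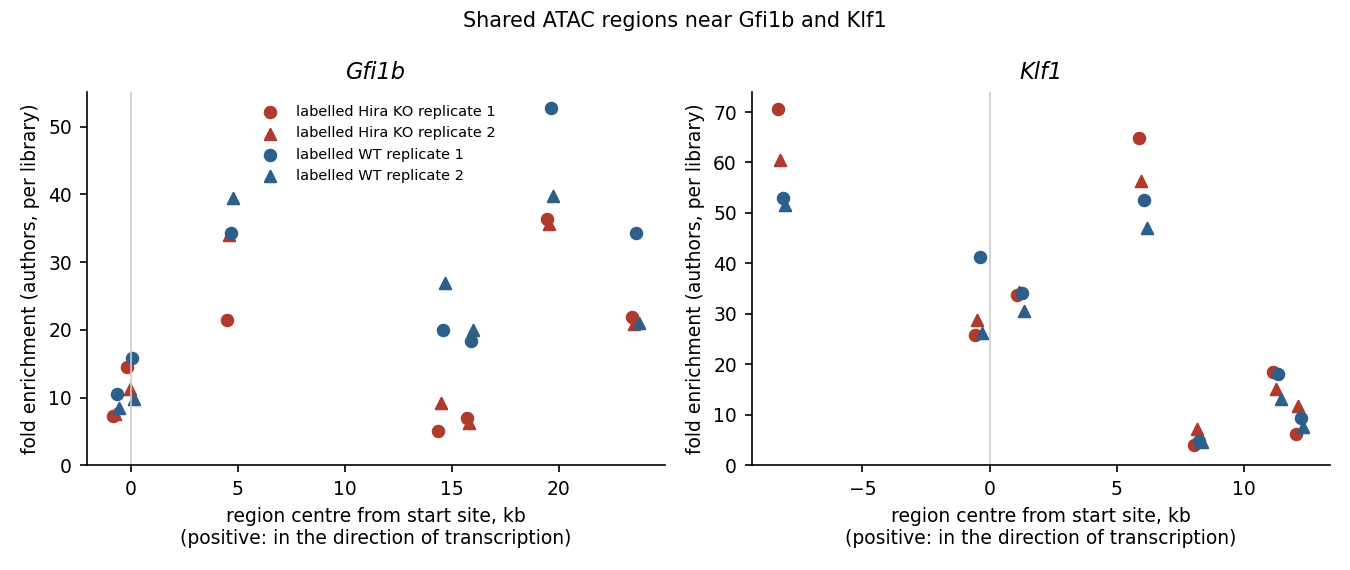
The authors' fold enrichment in each library at ATAC regions shared by all 4 libraries near Gfi1b and Klf1, against the distance of the region centre from the nearest start site in kb, with points of a region offset sideways; red is labelled Hira KO and blue labelled WT. At Gfi1b the labelled Hira KO values near 15 kb are 5.13 to 9.27, below the labelled WT values of 18.3 to 26.9.

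Near Klf1, the member with the lowest RNA fold change, none of the 7 shared regions within 10 kb had lower values without overlap. Only the promoter region and the region within the gene, given next, overlapped Klf1. The others overlapped neighbouring genes. The Klf1 promoter region (chromosome 8, 84900823 to 84902253), which covers the GATAAG site shown above, had 25.9 and 28.8 in labelled Hira KO and 41.4 and 26.3 in labelled WT. The region within the gene, at 84902605 to 84903772, had 33.8 and 34.3 in labelled Hira KO and 34.1 and 30.5 in labelled WT. The 2 regions with higher labelled Hira KO values overlapped the neighbouring genes Gcdh and Dnase2a. For Gata1, the promoter region (chromosome X, 7967754 to 7968758) had 14.2 and 9.95 in labelled Hira KO and 23.3 and 12.5 in labelled WT, and the region centred at -3.51 kb from the start site, at 7970937 to 7971897, had 13.1 and 16.5 in labelled Hira KO and 28.5 and 14.8 in labelled WT. The groups overlapped at both regions, with labelled WT replicate 1 highest. The start site used for Gata1 lies inside the gene span given above, and both regions overlap that span.

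Among the myeloid genes, Irf8, Cebpa and Spi1 had some shared regions of their own with higher labelled Hira KO values. Cebpe and Gfi1 each had 1 such region, outside the gene body. Of all shared regions, 24.9% were higher in labelled Hira KO without overlap. At Irf8 the promoter region (chromosome 8, 120736049 to 120736551), which covers the printed window with its STAT matches, had 16.8 and 18.5 in labelled Hira KO, against 7.12 and 8.53 in labelled WT, while the Irf8 transcript was lower in labelled Hira KO. The Cebpa promoter region (chromosome 7, 35118272 to 35119774) had 34.0 and 34.3 in labelled Hira KO, against 17.3 and 24.3 in labelled WT. At Spi1, the region at chromosome 2, 91082801 to 91083444 had 26.3 and 22.3 in labelled Hira KO, against 9.24 and 7.88 in labelled WT, and the region at 91096392 to 91097375 had 34.0 and 28.5 in labelled Hira KO, against 16.2 and 13.5 in labelled WT. The transcripts of Spi1 and Cebpa overlapped between the groups. RNA and ATAC libraries are not tied to the same mice by the labels, so the values stand side by side only.

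The promoter of Gfi1 at its upstream start site was called in 3 libraries, with fold enrichments of 15.9 and 6.52 in labelled Hira KO and 6.93 in labelled WT replicate 1, in the region at chromosome 5, 107725253 to 107726392. At its other listed start site, the region at 107723828 to 107724622 was called only in labelled Hira KO replicate 1 (12.6) and labelled WT replicate 1 (3.27). The 1 shared region of Gfi1 lay outside the gene. At Gata2, the promoter regions overlapped between the groups (9.09 and 6.86 in labelled Hira KO and 9.04 and 10.2 in labelled WT at the upstream start site), and an upstream region at chromosome 6, 88189382 to 88191179 had 27.5 and 25.1 in labelled Hira KO, against 36.0 and 28.2 in labelled WT, while a region within the gene, at 88202918 to 88203714, had 13.3 and 13.4 in labelled Hira KO, against 12.7 and 10.5 in labelled WT. The one region at Ebf1 shared by all libraries, at chromosome 11, 44616929 to 44617444, had 20.5 and 12.4 in labelled Hira KO and 20.8 and 13.8 in labelled WT. Of the 3 shared regions near Cebpe, the strongest, at chromosome 14, 54705527 to 54707020, had 52.2 and 48.0 in labelled Hira KO and 55.6 and 42.3 in labelled WT, with a Cebpe transcript near 0. Over the 12 promoter windows of the 8 members in the table, 9 overlapped a region called in any library and 7 a region called in all 4.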

How the data were processed

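RNA-seq and ATAC-seq of sorted LSK cells were analysed from the deposited files, 2 libraries labelled Hira KO and 2 labelled WT per assay, grouped by sample title. Per the submitters' processing notes, which assign no roles, the tools were STAR 2.5.3a with RSEM 1.3.0, and also HTSeq, DESeq2, MACS2 2.1.1, Trim Galore 0.4.5, bedtools and Bowtie2 2.2.9, on GRCm38. RNA files deposited by the authors hold RSEM expected counts, not normalized, per the file headers. The same deposited files give TPM, scaled for length and to a common total. Peak lists, called per library, hold the authors' fold enrichment (a ratio) and -log10 p and q. The sources used here give no strand setting.

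Rounded expected counts went into edgeR 4.0.16 under R 4.3.3 (TMM, filterByExpr, robust quasi-likelihood F test, genotype label only), adjusted by Benjamini-Hochberg over 16258 genes. SEs and intervals come from the F statistic. CPM use TMM-scaled library sizes. Symbols matched 45143 of 45706 IDs, and positions come from a RefSeq table of GRCm38.p6. Peaks sharing an interval were counted as 1, the mitochondrial interval was left out, and peaks overlapping by 1 bp were merged. The members and gene lists were chosen with earlier results of these data known. Named genes were all members and the 4 genes of lowest p in each related list. Values of 2 genes that this rule names are not reported here. Alternatives were DESeq2 1.42.0, limma 3.58.1 on log2(TPM + 1) and log2(TPM + 0.1), RLE factors, other filters, a replicate block, 1 library left out, and other region definitions. The edgeR and merging steps were tested on simulated data. Libraries of a group differed beyond sampling noise (chi-square per gene 74.7 in labelled Hira KO and 52.5 in labelled WT).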

Additional observations from a re-analysis of the deposited data

How the results depend on the processing

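With 2 libraries a group, the calls depend on the test. Members called lower, 0 by edgeR, numbered 1 by DESeq2, 2 by limma at either pseudocount, 4 with no low-count filter, and 0 to 4 when 1 library was left out; 0 were called higher under every setting run. Log2 fold changes that passed were -0.83 (DESeq2) and -0.85 (no filter) for Ebf1, -0.76 for Irf8 and -0.70 for Gfi1b (no filter), -1.53 (no filter), -1.45 and -1.86 (limma, pseudocounts 1 and 0.1) for Gata1, and -2.63 and -2.98 (limma) for Klf1.

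With 1 library left out the ranges were -1.03 to -0.66 (Ebf1), -1.03 to -0.40 (Irf8), -1.01 to -0.43 (Gfi1b), -2.89 to -0.85 (Gata1), -4.26 to -1.66 (Klf1), -0.31 to 0.10 (Gata2), -0.30 to 0.015 (Spi1), -0.067 to 1.33 (Cebpa) and -0.12 to 0.39 (Gfi1). The last 4 changed sign. They did so without labelled WT replicate 1 (Gata2, 0.10), labelled Hira KO replicate 2 (Spi1, 0.015), labelled WT replicate 2 (Cebpa, -0.067) and labelled Hira KO replicate 1 (Gfi1, -0.12). The cause was not tested.

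Over all genes, 214 were called higher and 78 lower. The counts were 918 and 570 (DESeq2), 1206 and 1017 (no filter), 340 and 140 (stricter filter), 392 and 262 or 376 and 246 (limma, pseudocounts 1 and 0.1), and 1 to 1657 and 1 to 1888 with 1 library left out. Without labelled WT replicate 1 they were 3 and 1, and without replicate 2 of that group 1 and 1. For the related lists together, 2 higher and 4 lower became 9 and 21 (DESeq2), 10 and 27 (no filter), 5 and 16 or 4 and 15 (limma), 4 higher (stricter filter), and 0 to 16 and 0 to 42 with 1 library left out. With the replicate block the counts were 368 higher and 169 lower over all genes and 17 lower in the related lists. The labels give no pairing, and deviations of same-numbered libraries were not correlated (r = -0.007 across genes), but their mitochondrial shares were alike (42.9% in labelled Hira KO and 40.8% in labelled WT replicate 1, 53.1% and 51.7% in replicate 2). Whether a number marks a shared batch was not tested.

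Regions near members numbered 191 in a window of 50 kb. Those called in all libraries were 21 at 2 kb and 71 at 50 kb (31 to 41 with 1 library left out), and those of labelled Hira KO alone 1 at 2 kb and 11 at 50 kb (3 to 16). Regions of labelled WT alone numbered 4 to 13 with 1 library left out. Counts were low for Cebpe (0 to 41), and reached down to 29 for Gata1 and 34 for Klf1, in labelled Hira KO replicate 2, and 48 for Cebpa, in labelled WT replicate 2.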

Other observations

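Beyond 10 kb and up to 50 kb from the gene bodies lay 102 regions, of which 39 were called in all 4 ATAC libraries (38.2%), 8 in the labelled Hira KO pair alone (7.84%) and 1 in the labelled WT pair alone (0.98%). The shares over all regions were 40.7%, 5.64% and 2.77%. Of these 8, 4 lay around Irf8. The strongest of these by its lower library, at chromosome 8, 120777170 to 120777599 (centre 38.7 kb past the nearest start site), had fold enrichments of 8.16 and 7.55 in labelled Hira KO. A shared region at 120685827 to 120686555, centred at -50.2 kb from the nearest Irf8 start site, had 17.5 and 16.1 in labelled Hira KO, against 6.93 and 8.21 in labelled WT. Cebpa had a shared region 37.4 kb past its start site (chromosome 7, 35156370 to 35157041) with 17.2 and 8.24 in labelled Hira KO, against 5.003 and 4.92 in labelled WT, and beside it a region of the labelled Hira KO pair alone (7.46 and 5.83). Other shared regions had lower labelled Hira KO values. One near Spi1 (chromosome 2, 91060482 to 91061455) had 14.2 and 27.8 in labelled Hira KO, against 54.5 and 55.8 in labelled WT. Near Gata2, the region at chromosome 6, 88251716 to 88253271 had 13.3 and 24.7 in labelled Hira KO, against 34.4 and 34.5 in labelled WT, and that at 88253863 to 88254525 had 11.4 and 13.0 in labelled Hira KO, against 18.7 and 16.4 in labelled WT. These regions were picked after their values were seen and were not tested.

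Among family relatives, Klf2, Klf4 and Klf6, also picked after their values were seen, stood out by fold change. Klf6, a zinc finger gene, had 113 and 735 CPM in labelled Hira KO, against 31.7 and 20.3 CPM in labelled WT (log2 fold change 4.03, edgeR adjusted p = 0.208). Klf2 had 8.81 and 96.0 CPM in labelled Hira KO, against 1.38 and 1.91 CPM in labelled WT, and Klf4 had 10.3 and 84.8 CPM in labelled Hira KO, against 4.76 and 2.74 CPM in labelled WT. All 3 were far higher in labelled Hira KO replicate 2, the library in which Klf1 and Gata1 were lowest.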
